A study of Mus musculus with 6 samples.

Results

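The 26S proteasome is the protease that unfolds and cuts proteins tagged with ubiquitin. It joins the barrel-shaped 20S core, built from rings of alpha and beta subunits, to 19S regulatory particles that bind, unfold and feed in the substrate. The core's cutting sites sit on 3 beta subunits. In immune cells, and under interferon, immunoproteasome subunits take their place, and the peptides they cut load MHC class I molecules. Photoreceptors turn over large amounts of protein, and the proteasome is a main route by which they remove misfolded protein.

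Levels of the proteasome genes were read from RNA sequencing of retina from wild-type C57BL6/J mice. Members were all genes whose symbol begins with Psm, a letter from a to g and a digit, which gave 47 of 15465 genes. They comprised 7 core alpha genes, 7 constitutive core beta genes, 3 immunoproteasome genes, 6 ATPase and 11 non-ATPase genes of the 19S particle, 5 activators and regulators, and 7 assembly factors. The remaining gene was Psmc3ip, a partner of meiotic recombinases that shares only its name with the family. Psma8, the testis alpha subunit, and Psmb11, the thymus beta subunit, were not analysed here.

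There was 1 group, wild-type retina with no treatment named, from mice of unstated age. Each of 3 biological replicates was a pool from 5 mice. Its 2 technical replicates share 1 column of values, so n was 3. The sample titles give this grouping, and the source labels number the samples in another way, so the SDs rest on the titles. Values were taken as RPKM (reads per kilobase of transcript, scaled to the size of the library), a unit inferred from the values. They summed to 275995, 302634 and 249532 in replicates 1, 2 and 3. The number of reads behind these sums is unknown. Rod markers identified the tissue, with Nrl, a transcription factor of rods, at 767 ± 76.6 RPKM (SD, n = 3). In whole retina, fewer cells of a type and less RNA per cell cannot be told apart.

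Rows of a certain kind went against the rest. A symbol that begins with another gene's whole symbol followed by a digit, as Psmd14 begins with Psmd1, and such a shorter symbol itself, is called digit-extended here. These were 2656 of the 15465 genes and 623 of the 679 genes called as varying between replicates in the test described further on, a share of 91.8%. Among the members they were Psmb1, Psmb10, Psmd1 and Psmd10 to Psmd14, or 8 of 47. Main results that rest on them are also given without them.

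The inducible and constitutive catalytic subunits take each other's places in the core and are compared as pairs, so promoters of 5 of the 6 are shown first. The 120 bases before the RefSeq start (GRCm38.p6, a later build than the mm9 of the files) are printed 5′ to 3′ in the direction of the gene. Psmb8 is read from chr17:34198075-34198194 on the plus strand, Psmb9 from chr17:34187331-34187450 on the minus strand and Psmb10 from chr8:105938393-105938512 on the minus strand. Psmb5 is read from chr14:54617996-54618115 on the minus strand and Psmb6 from chr11:70525237-70525356 on the plus strand. Capitals mark the motifs searched on both strands, which were TGACNNNGC, the core of the element bound by the proteasome regulator NRF1 (Nfe2l1), and TTCNNNGAA, the gamma-activated sequence of the interferon response.
Psmb8: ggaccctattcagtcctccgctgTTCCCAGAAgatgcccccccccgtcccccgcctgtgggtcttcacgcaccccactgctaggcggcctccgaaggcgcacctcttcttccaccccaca
Psmb9: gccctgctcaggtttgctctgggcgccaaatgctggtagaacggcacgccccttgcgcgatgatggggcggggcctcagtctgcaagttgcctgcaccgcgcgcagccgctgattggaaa
Psmb10: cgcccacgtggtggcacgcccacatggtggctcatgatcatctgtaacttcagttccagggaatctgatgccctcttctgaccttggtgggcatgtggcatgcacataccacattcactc
Psmb5: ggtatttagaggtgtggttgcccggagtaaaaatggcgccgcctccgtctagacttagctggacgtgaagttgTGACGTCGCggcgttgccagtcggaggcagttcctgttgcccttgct
Psmb6: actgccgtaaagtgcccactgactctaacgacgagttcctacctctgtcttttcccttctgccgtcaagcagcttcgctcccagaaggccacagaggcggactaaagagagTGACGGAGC

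The gamma-activated letters began 97 bases before the start of Psmb8. The NRF1 letters began 47 bases before the start of Psmb5 and 9 bases before that of Psmb6. RefSeq promoter windows, which run from 250 bases before to 50 bases after a start, were matched by symbol to 40 members, with 43 windows between them. Of these windows 6 held TGACNNNGC (14.0%), against 12.4% of all 32851 windows. TTCNNNGAA was held by 3 of the 43 windows (6.98%), against 8.3% of all windows. Neither motif was in the printed stretch of Psmb9 or Psmb10, which says only that these letters are not there.

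Proteasome genes were well represented in the retina. The median over the 47 members was 20.5, 28.3 and 22.1 RPKM in replicates 1, 2 and 3, against 8.64, 9.53 and 8.37 RPKM over 12562 genes whose mean reached 1 RPKM. All 47 members passed that filter, 37 had a mean of 10 RPKM or more, and 38 lay above the median gene mean of 9.06 RPKM. On the log2(RPKM + 0.1) scale the member median exceeded that of all genes 2.63-fold, and 2.88-fold without digit-extended symbols. The difference was larger than its SD over replicates, 0.16 on the log2 scale. RPKM divides by transcript length, and members were short, with a median transcript of 1410 bases against 2908 for all genes. Multiplied back by length, the member median stood 1.43-fold above that of all genes.

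**Figure D1:**
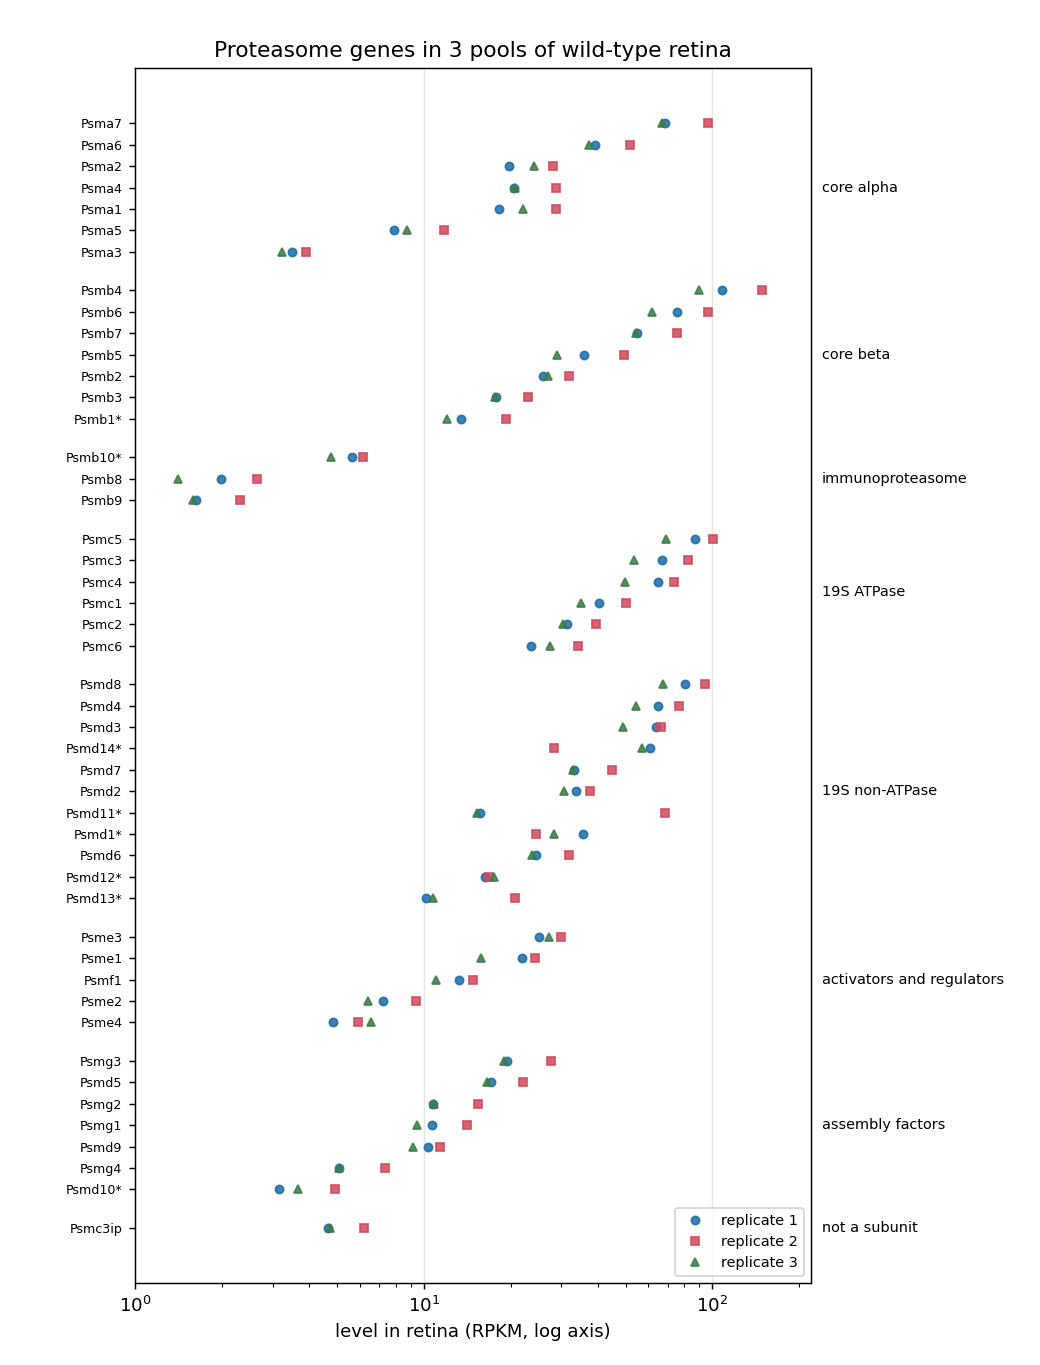
Level of each of the 47 members (RPKM, log axis) in replicate 1 (circles), replicate 2 (squares) and replicate 3 (triangles), by role and ordered by mean; an asterisk marks a digit-extended symbol. Psmb4 is at the right with a mean of 116 RPKM and Psmb9 at the left with 1.84 RPKM, and most genes have replicate 2 as their highest point.

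Immunoproteasome transcripts were scarce. Psmb8, which encodes the inducible chymotrypsin-like subunit, had 1.98, 2.65 and 1.41 RPKM in replicates 1, 2 and 3, against 35.9, 49.3 and 29.0 RPKM for Psmb5, the constitutive subunit whose place it takes. Every Psmb8 value lay under every Psmb5 value. Psmb8 stood 18.2-fold lower than Psmb5 on the log2(RPKM + 0.1) scale (log2 ratio -4.18 ± 0.08, SD, n = 3).

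Psmb9 encodes the inducible subunit in the place of Psmb6, the caspase-like site. It had 1.62, 2.31 and 1.58 RPKM, against 75.3, 96.3 and 61.6 RPKM for Psmb6. This was the widest gap of the 3 pairs, with Psmb9 40.1-fold lower (log2 ratio -5.33 ± 0.13). The tryptic site showed the narrowest gap. Psmb10, the inducible form, had 5.62, 6.16 and 4.78 RPKM, and Psmb7, the constitutive form, had 54.95, 75.4 and 54.6 RPKM. Psmb10 was 10.9-fold lower (log2 ratio -3.45 ± 0.17), and its symbol is digit-extended.

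Of the RPKM summed over the 6 exchangeable genes, the inducible forms held 5.26%, 4.79% and 5.08% in replicates 1, 2 and 3, a mean of 5.04% ± 0.236. Without Psmb10, which has a digit-extended symbol, and its counterpart Psmb7, the inducible share was 3.21% ± 0.0800. The inducible share within a pair was 4.99% ± 0.311 for Psmb8, 2.32% ± 0.199 for Psmb9 and 8.29% ± 0.889 for Psmb10. The order of the 3 shares was the same in each replicate. Each log2 ratio exceeded its SD by a wide margin, but the smallest p that 3 replicates allow in an exact sign-flip test is 0.25, so no p is given. Multiplication by transcript length brought the gap to 10.2-fold for Psmb8, 24.0-fold for Psmb9 and 9.70-fold for Psmb10. The log2 ratios of Psmb8 (-3.36 ± 0.09) and Psmb10 (-3.28 ± 0.17) then lay within the SD of the Psmb10 pair.

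**Figure D2:**
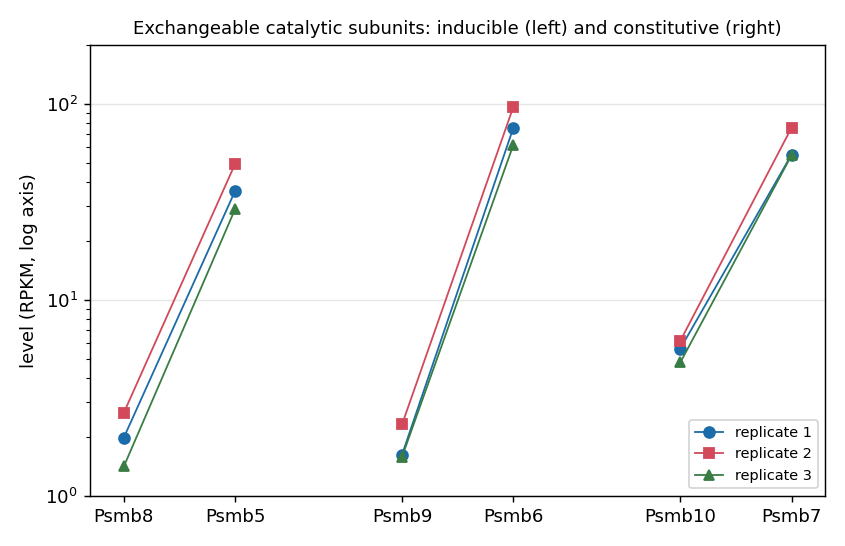
Level (RPKM, log axis) of the 3 inducible catalytic subunits, each left of the constitutive subunit it replaces, with a line for each replicate. Inducible values lie between 1.41 and 6.16 RPKM and constitutive values between 29.0 and 96.3 RPKM.

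Immune cells carry immunoproteasome transcripts, and their markers were low in these pools. All 9 listed microglia and immune markers had values above 0, summing to 28.2, 34.5 and 24.2 RPKM in replicates 1, 2 and 3. Ptprc, the pan-leukocyte CD45 gene, had 0.0667 ± 0.0115 RPKM and C1qb, a complement gene of microglia, 7.24 ± 1.60 RPKM. All 3 immunoproteasome genes followed the same order of replicates as this sum, as did the sum of all RPKM in each replicate. The single markers did not all share that order. C1qa, C1qb and C1qc did, but Csf1r was highest in replicate 1 (4.96, 3.55 and 3.34 RPKM). Aif1 and Cx3cr1 were highest in replicate 3, Ctss was lowest in replicate 1, and Cd68 and Ptprc had tied values. The part of immune cells in the immunoproteasome levels was not tested. In GENCODE M21, exons of other genes cover 14.7% of the exon bases of Psmb8 (Gm20496) and 5.79% of those of Psmb9 (Tap1). Whether counting used strand is not given in the sources used here, so reads there cannot be assigned with certainty.

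The constitutive beta subunits included the most abundant gene of the family. Psmb4, a structural subunit of the beta ring, had 108, 148 and 90.0 RPKM in replicates 1, 2 and 3. Psmb1, also structural, was lowest of the 7 with 13.5, 19.3 and 12.00 RPKM, and its symbol is digit-extended. The other structural genes Psmb2 and Psmb3 had 28.2 ± 3.21 and 19.5 ± 3.04 RPKM. The catalytic genes Psmb6 (77.7 ± 17.5 RPKM), Psmb7 (61.7 ± 11.9) and Psmb5 (38.1 ± 10.3) lay between Psmb4 and Psmb2. Psmb4 exceeded Psmb1 7.69-fold, with an SD of 0.05 on the log2 scale.

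Alpha subunits form the outer rings and the gate through which substrate enters the core. Psma7 led with 68.6, 96.3 and 66.7 RPKM, ahead of Psma6 with 42.8 ± 7.88 RPKM. Psma2, Psma4 and Psma1 followed closely with 24.0 ± 4.18, 23.3 ± 4.64 and 22.98 ± 5.32 RPKM, differences within their SDs. Psma5 had 7.91, 11.7 and 8.76 RPKM and Psma3 had 3.49, 3.91 and 3.23 RPKM. The Psma3 protein takes the same number of places in the core as that of Psma7, yet its transcript level was 21.0-fold lower (SD 0.17 on the log2 scale). Over the group medians, beta genes were 1.60-fold above alpha genes (log2 difference 0.68 ± 0.25). That difference was 0.26 once values were multiplied by length, and 1.03 without digit-extended symbols.

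Several core genes have near-identical copies elsewhere in the genome. With blastn, 9 of the 47 members matched a pseudogene or a paralogue of the family at 95% identity or more over 200 bases or more. In the core these were Psma3, Psma4, Psma5, Psmb3 and Psmb5, whose median of gene means was 19.5 RPKM. The 9 other core genes had a median of 42.8 RPKM. Psma3 matched 4 other genes, Psmb3 matched 3 and Psma5 matched 2. The lowest alpha gene, the next lowest alpha gene and the next lowest beta gene are thus among the genes with copies. Over all members the medians lay closer, at 23.3 RPKM for the 9 with copies and 25.3 RPKM for the 38 others. The 38 include Psmb9 and Psmb8, the lowest members of all. Among 19S genes without digit-extended symbols the medians were 38.0 RPKM for 2 with copies and 61.2 RPKM for 10 others. How reads that match several places were counted is not given in the sources used here. The part of these copies in the low values was not tested, and levels of these 5 genes, and of Psmc1, Psmd2, Psmd11 and Psme2, are uncertain for this reason. In GENCODE M21, exons of other genes also cover more than 5% of the exon bases of 10 members, among them Psmb5 (12.1%), Psmb7 (11.8%) and Psmd13 (10.1%).

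The non-ATPase subunits of the 19S particle capture ubiquitin chains, remove them and scaffold the lid. Psmd8, a lid subunit, was highest with 80.2, 94.0 and 67.6 RPKM in replicates 1, 2 and 3. Psmd4, the ubiquitin receptor Rpn10, had 65.2 ± 11.2 RPKM, and Psmd3, a lid subunit, had 59.8 ± 9.30 RPKM. Psmd7, the partner of the deubiquitinase Psmd14, had 37.0 ± 6.83 RPKM. Psmd2, a large scaffold of the base, had 34.0 ± 3.51 RPKM, and the lid gene Psmd6 had 26.6 ± 4.48 RPKM. These 6 genes spanned 3.03-fold, and all have symbols that are not digit-extended.

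The 19S ATPases form the ring that unfolds substrate. Psmc5 was highest with 86.8, 100.3 and 69.3 RPKM and Psmc6 lowest with 23.5, 34.3 and 27.3 RPKM. Psmc3 (67.6 ± 14.3 RPKM), Psmc4 (62.6 ± 12.01), Psmc1 (41.9 ± 7.70) and Psmc2 (33.7 ± 5.01) lay between them. The 14 constitutive core genes spanned 32.6-fold, against 3.01-fold for the 6 ATPases. The low end of the core span was Psma3, whose level is uncertain because of its copies. The 9 core genes without a matching pseudogene or paralogue ran from 14.9 to 116 RPKM. Non-ATPase genes had a median 0.58 ± 0.12 below the ATPases on the log2 scale. Without digit-extended symbols that gap was 0.12, and the ATPases then stood 1.08-fold above. The core had a median of 23.2, 30.3 and 25.5 RPKM and the 19S genes 35.8, 44.9 and 33.0 RPKM. The log2 difference of core and 19S medians was -0.52 ± 0.14. It was -0.82 without digit-extended symbols and -1.35 with values multiplied by transcript length.

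The remaining 5 non-ATPase genes have digit-extended symbols, and 2 of them made up every member that varied between replicates. In limma's test of each gene's variance against the prior at its mean (robust trended prior, Benjamini-Hochberg adjustment over 12562 genes), 679 genes (5.41%) and 2 of 47 members were called. The share among members, 2 of 47, was near this background. Psmd11, a lid scaffold, had 15.6, 68.5 and 15.2 RPKM in replicates 1, 2 and 3 (SD 1.13 on the log2 scale, limma adjusted p = 0.00281). Psmd14, the deubiquitinase Rpn11, had 61.0, 28.3 and 56.9 RPKM (SD 0.72 on the log2 scale, limma adjusted p = 0.0343). Replicate 2 alone stood apart, high for Psmd11 and low for Psmd14.

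Psmd13, a lid subunit, had 10.2, 20.7 and 10.8 RPKM, with replicate 2 high, and did not pass (limma adjusted p = 0.231). Psmd1, the large base scaffold, had 35.8, 24.5 and 28.3 RPKM, with replicate 2 lowest, and did not pass either (limma adjusted p = 0.595). Psmd12, a lid scaffold, had 16.3, 16.9 and 17.5 RPKM. Psmd10, the assembly factor gankyrin, had 3.16, 4.94 and 3.67 RPKM. Both had a smaller SD on the log2 scale than Psmd13.

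The sum over these 6 rows moved less than Psmd11 and Psmd14 did. It was 142, 164 and 132 RPKM in replicates 1, 2 and 3. As a percentage of the sum of the 6 other non-ATPase genes it was 47.4%, 46.6% and 51.2%. Within the sum Psmd11 held 11.0%, 41.8% and 11.5%, and Psmd14 held 43.0%, 17.3% and 43.0%. The largest of the 6 values, 61.0, 68.5 and 56.9 RPKM, stood beside Psmd14 in replicates 1 and 3 and beside Psmd11 in replicate 2. With the values sorted from the largest down, rank 2 held 35.8, 28.3 and 28.3 RPKM. Ranks 3 to 6 were each highest in replicate 2, with 16.3, 24.5 and 17.5 RPKM at rank 3. Whether values of these rows were exchanged in any replicate was not tested. Psmd11 was not called without replicate 2, and Psmd14 was not called when any replicate was left out, with no filter, or with a trend on transcript length removed. Limma's non-robust prior called 0 members and 0 of all 12562 genes, with 2 of 47 members and 704 of all genes (5.60%) at an unadjusted p under 0.05.

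**Figure D3:**
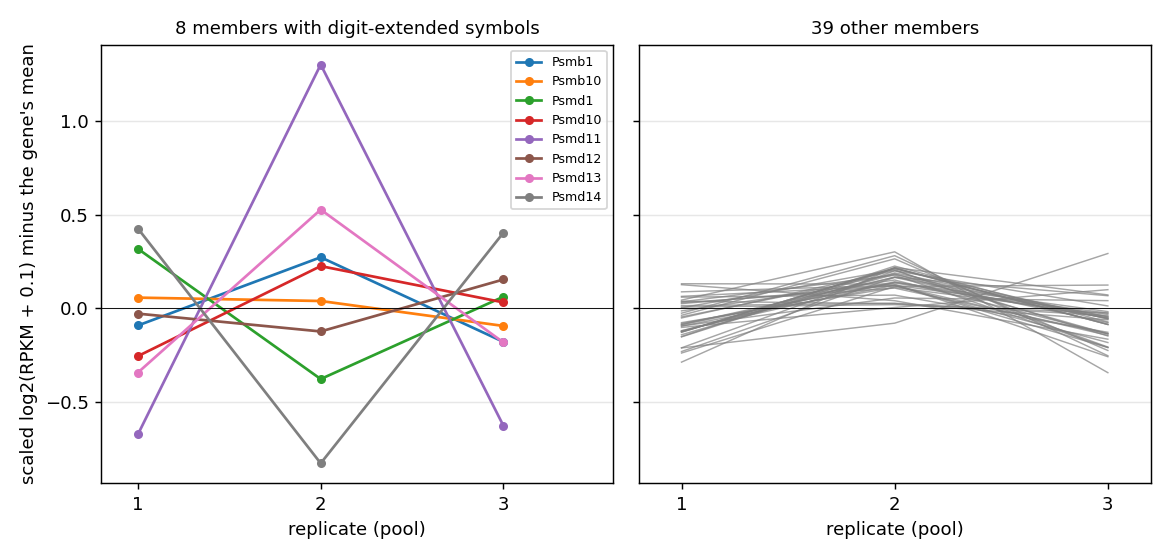
Scaled log2(RPKM + 0.1) of each member minus its own mean, in replicates 1, 2 and 3, for the 8 members with digit-extended symbols (left) and the 39 other members (right); a line joins the values of a gene. Psmd11 and Psmd13 peak and Psmd14 and Psmd1 dip in replicate 2, while the other 39 genes deviate less.

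With digit-extended symbols left out, 0 of 39 members varied by limma's robust test, against 98 of 10474 genes (0.936%), a share at which fewer than 1 of 39 would be called. At an unadjusted p under 0.05 there were 0 of the 39, against 642 of 10474 genes (6.13%). The median SD over these 39 members was 0.17 on the log2 scale, above the 0.14 of all genes without such symbols. Across these 39 genes, log2 levels correlated at 0.996, 0.991 and 0.993 between replicates 1 and 2, 1 and 3, and 2 and 3. Across the 8 digit-extended members the values were 0.708, 0.992 and 0.720. These are correlations across genes of the same libraries, and genes are not independent replicates. Among the 8, replicates 1 and 3 thus ran together and replicate 2 apart from both.

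Most members shared a pattern of small size, with replicate 2 highest. After scaling of the replicates, 37 of the 47 members had their highest value in replicate 2, against 34.7% of all genes. Without digit-extended symbols these were 33 of 39 members, against 34.9% of genes. The median member stood 0.23 on the log2 scale above the mean of replicates 1 and 3. All 7 beta genes, 6 of 7 alpha genes, 6 of 6 ATPase genes and 6 of 7 assembly factors were highest there. The same held for 2 of 3 immunoproteasome genes, 7 of 11 non-ATPase genes, with 3 lowest there, and 2 of 5 activators and regulators. Psme4, with the longest transcript of the family, was highest in replicate 3 with 4.84, 5.90 and 6.54 RPKM.

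Markers of tissues outside the neural retina also differed between replicates, in replicate 3 as well as in replicate 2. All 3 skeletal muscle markers were highest in replicate 2, with sums of 5.60, 17.3 and 4.02 RPKM in replicates 1, 2 and 3. Of these markers 2 of 3 varied by limma's robust test. Over all genes 5.41% varied and 34.7% were highest in replicate 2 after scaling, which holds beside each marker list here. The 3 cornea and conjunctiva markers had sums of 7.74, 16.4 and 9.76 RPKM. Krt5 and Aldh3a1 were highest in replicate 2, and Krt12, which has a digit-extended symbol, was lowest there. The 2 of 3 that varied were Krt5 and Krt12, so only Krt5 both varied and was highest in replicate 2. After scaling, all 5 lens markers were lowest in replicate 2 and highest in replicate 3. Their sums were 111, 76.3 and 183 RPKM, and 3 of 5 varied. Pigment epithelium markers had sums of 240, 236 and 136 RPKM, lowest in replicate 3. After scaling, 3 of these 4 were highest in replicate 1 and 1 in replicate 2, and 3 of 4 varied. The marker highest in replicate 2 was Rpe65, which varied and has a digit-extended symbol. No marker of these lists was at 0 in every replicate. The part of these tissues in the members' pattern was not tested.

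Transcript length moved with this pattern. Over all genes without digit-extended symbols, the median deviation of replicate 2 was 0.23 for transcripts under 1000 bases and -0.27 for those of 6000 bases or more. The deviation correlated with log2 length at -0.649 across the 39 members and at -0.465 across 10326 genes. After a smooth length trend was removed from each replicate, 25 of 47 members were highest in replicate 2, against 30.6% of all genes. By role these were 4 of 7 beta, 3 of 7 alpha, 3 of 6 ATPase, 5 of 11 non-ATPase and 2 of 3 immunoproteasome genes, 2 of 5 activators and regulators and 6 of 7 assembly factors. Without digit-extended symbols these were 21 of 39 members, against 30.2% of genes. The median member deviation was then 0.09, and Psmd11 was the 1 member still called as varying, against 4.54% of all genes. The median over all 47 members spanned 0.31 on the log2 scale between replicates, against 0.04 for all genes, and 0.25 after removal of the trend. Without digit-extended symbols the span was 0.20, and 0.19 after removal of the trend. Without replicate 1 it was 0.12.

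**Figure D4:**
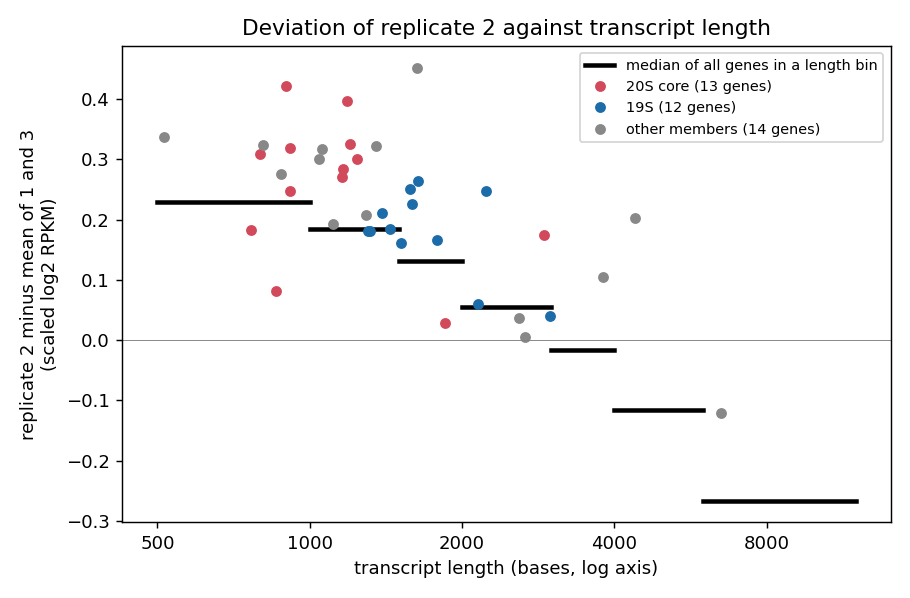
Replicate 2 minus the mean of replicates 1 and 3 (scaled log2 RPKM) against transcript length (bases, log axis) for the 39 members without digit-extended symbols, by complex; black bars are medians of all such genes per length bin, the outer bins drawn to the plot's limits. Most members lie near or above the bars, which fall from 0.23 for the shortest to -0.27 for the longest transcripts.

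Activators open the core's gate in place of the 19S particle. Psme1 and Psme2 encode the interferon-inducible cytosolic PA28 alpha and beta subunits. Psme1 had 21.8, 24.2 and 15.8 RPKM and Psme2 had 7.22, 9.42 and 6.41 RPKM in replicates 1, 2 and 3. Psme1 exceeded Psme2 2.65-fold (SD 0.16 on the log2 scale), although their products share a ring, and the near-identical paralogue Psme2b leaves the Psme2 level uncertain. Psme3, the nuclear PA28 gamma, had 25.0, 29.9 and 27.2 RPKM. The mean of Psme1 and Psme2 was 1.13 ± 0.26 below Psme3 on the log2 scale, and 2.19-fold lower. With values multiplied by transcript length it was 5.89-fold lower. Psme4, the large activator PA200, had 5.76 ± 0.859 RPKM. Psmf1, the regulator PI31, had 13.2, 14.8 and 11.0 RPKM.

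Assembly factors were lower than most subunits. Psmg3, a chaperone of the alpha ring, had 19.5, 27.5 and 18.98 RPKM, and Psmg4, its partner, had 5.07, 7.34 and 5.07 RPKM. These partners differed 3.73-fold with an SD of 0.02 on the log2 scale. The other pair of core chaperones was balanced. Psmg1 had 11.4 ± 2.44 RPKM and Psmg2 had 12.3 ± 2.65 RPKM, a log2 ratio of -0.11 ± 0.10. Of the chaperones of the 19S base, Psmd5 had 18.6 ± 3.07 RPKM, Psmd9 had 10.3 ± 1.13 RPKM and Psmd10 had 3.92 ± 0.917 RPKM. Exons of another gene cover 25.5% of the exon bases of Psmd9. The group's median was 10.7, 14.2 and 9.45 RPKM. Psmc3ip, which is no part of the proteasome, had 4.66, 6.21 and 4.74 RPKM.

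Other genes of the pathway were read from a list of partners that do not carry the Psm name. Of 23 symbols, some of them names of the same gene, 20 had values, and 0 of 20 varied by limma's robust test, against 5.41% of all genes. At an unadjusted p under 0.05 there were 2 of 20, against 8.32% of all genes. Their median was 16.3, 17.6 and 15.9 RPKM in replicates 1, 2 and 3, and 5 of 20 were highest in replicate 2 after scaling, against 34.7% of all genes. Pomp, the maturation factor of the core, had 45.2 ± 9.28 RPKM. Nfe2l1, which encodes the NRF1 factor that drives proteasome genes, had 48.3 ± 3.27 RPKM, and Nfe2l2, its relative in the antioxidant response, had 10.1 ± 0.972 RPKM. Ubqln2, a shuttle for ubiquitinated protein, had the highest mean of the 20 with 57.1, 48.4 and 41.4 RPKM, although Pomp was higher in replicate 2 and Nfe2l1 in replicate 3. Adrm1, a ubiquitin receptor of the 19S base, had 9.90 ± 1.97 RPKM. Usp14, a deubiquitinase of the 19S particle with a digit-extended symbol, had the lowest mean with 6.47, 3.44 and 3.35 RPKM, although Ube3a, a ubiquitin ligase, and Uchl5, another deubiquitinase of the 19S particle, were lower in replicate 1.

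Genes that supply and activate ubiquitin were read from the same list. Ubb, a polyubiquitin gene, had 166, 216 and 148 RPKM in replicates 1, 2 and 3. Uba1, the main activating enzyme, had 63.7 ± 6.58 RPKM, and its relative Uba6 had 1.75 ± 0.160 RPKM. Rps27a, a fusion of ubiquitin to a ribosomal protein with a digit-extended symbol, had 1.22 ± 0.240 RPKM. None of these 4 genes varied by limma's robust test, and 0 of the 4 had an unadjusted p under 0.05, a number too small to read against 5.41% and 8.32% of all genes.

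Genes of class I antigen processing and the interferon response, in which the immunoproteasome takes part, had a median of 4.26, 4.88 and 3.33 RPKM over 14 genes. Of these, 13 passed the filter and 0 varied by limma's robust test, against 5.41% of all genes, at which fewer than 1 of 13 would be called. At an unadjusted p under 0.05 there were 0 of 13, against 8.32% of all genes. Tapbp, H2-D1 and B2m, which act in loading and form class I molecules, had 24.4 ± 3.47, 23.5 ± 4.14 and 19.2 ± 4.65 RPKM. Tap2, a subunit of the peptide transporter, had 5.05 ± 0.884 RPKM and Tap1, its partner and the neighbour of Psmb9, had 1.32 ± 0.206 RPKM. Nlrc5, the class I transactivator, had 0.123 ± 0.0493 RPKM, and Irf1, an interferon-inducible factor, had 1.90 ± 0.363 RPKM. Tap1 and Irf1 thus stood near the levels of Psmb8 and Psmb9.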

How the data were processed

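The authors deposited 1 table per biological replicate, taken here as RPKM (inferred from the values, which would look the same as FPKM). According to processing tools and builds listed per the submitters' processing notes, reads were treated with GSNAP and HTSeq on mm9. For annotation, strand and filters, the sources used here say nothing. The tables had 15468 rows each, and 3 repeated symbols were kept once. Depth is unknown, so no interval that needs it is given.

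For tests only, replicates were divided by trimmed-mean scaling factors (30% of ratios and 5% of means at each end; factors 0.984, 1.09 and 0.931). Levels are as deposited. Genes whose mean reached 1 RPKM were tested on log2(RPKM + 0.1), which understates differences of low genes, with limma 3.58.1 (R 4.3.3). Each variance was set against limma's robust trended prior by an F test, and p-values were adjusted by Benjamini-Hochberg (threshold 0.05). Differences between gene groups have an SD over replicates and no test.

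Transcript lengths are medians over GENCODE M21 transcripts linked to RefSeq (98.5% of genes). Copies were searched with BLAST 2.17.0. Genes printed with every replicate are the exchangeable catalytic subunits, group extremes, called members, digit-extended symbols and activators, plus some examples chosen after their values were seen. Members and lists were chosen with earlier results of these data known. P-values measure the spread between pools. Some results of the fixed lists are not reported here.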

Additional observations from a re-analysis of the deposited data

How the results depend on the processing

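No paired analysis was possible because there was 1 group. Removal of the length trend was chosen after seeing the data; the other alternatives were planned. Of 76 alternatives, 49 moved a value by less than its SD or a count by at most 1.5 times, and 0 reversed a direction. Those on counts of varying genes and on the span of the member median are among the 76 but could not reverse, because these have no direction. Log2 differences follow. Multiplied by transcript length, PA28 alpha and beta against gamma was -2.56, beta against alpha 0.26, core against 19S -1.35, non-ATPase against ATPase -0.018, members against all genes 0.51, Psmb8 against Psmb5 -3.36, Psmb9 against Psmb6 -4.58 and Psmb10 against Psmb7 -3.28. With a pseudocount of 1 the 3 pairs were -3.68, -4.78 and -3.25. Without digit-extended symbols, beta against alpha was 1.03, core against 19S -0.82 and non-ATPase against ATPase -0.12. By the mean of members, beta against alpha was 0.98. With no filter, members against all genes was 1.93. With a replicate left out, the span of the member median was between 0.12 (without replicate 1) and 0.32. The count of all varying genes was 98 without digit-extended symbols and 0 with the non-robust prior (704 with an unadjusted p under 0.05). With a replicate left out it ran from 302 (the fit without replicate 2) to 467. The count of varying members was 1 with no filter, 1 with the length trend removed, 0 with the non-robust prior, and 0 without digit-extended symbols. With a replicate left out it ran from 0 (the fit without replicate 2) to 1. Fewer genes or replicates entered where symbols or replicates were left out. The cause of the other moves was not tested.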
